A study of Mus musculus with 14 samples.

Results

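Adra1a, Adra1b, Adra1d, Adra2a, Adra2b, Adra2c, Adrb1 and Adrb3 encode adrenergic receptors, the cell surface receptors for noradrenaline and adrenaline. To see how the repressive histone mark H3K27me3 lay over them, every H3K27me3 peak was taken that overlapped the gene body plus 5 kb on each side of one of these 8 genes, by the GENCODE M21 annotation of mouse build mm10. This gave 35 of the 23668 peaks in the authors' deposited table, with at least 1 peak at each of the 8 genes. The family was chosen by its control and knockdown group means, in particular a high value over Adra1d after *NeuID* knockdown (KD), so those means are given as a description and no test was made on them.

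H3K27me3 was profiled by chromatin immunoprecipitation and sequencing (ChIP-seq) with a Millipore antibody in primary hippocampal neurons, grown from embryonic CD1 mice and labelled wild type in both groups. The control cultures had received lipid nanoparticles carrying a negative control gapmer, and the KD cultures nanoparticles carrying a gapmer against *NeuID*, a long noncoding RNA of neurons. A gapmer is a short antisense oligomer that directs cleavage of the RNA it pairs with, and each group rests on a single gapmer sequence. The labels list 6 control and 6 KD ChIP libraries with 1 input library for each condition, while the deposited overall means have the weights of 6 control and 5 KD libraries. For each peak the authors deposited the log2 mean of normalized reads per library of each group. Values per library, their spread and the total reads were not analysed here, so whether a difference exceeded the spread between libraries could not be judged for any peak. Fewer cells carrying the mark at a locus and less of the mark in each cell cannot be told apart in such bulk cultures.

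H3K27me3 is deposited by Polycomb repressive complex 2 (PRC2), tends to lie over CpG-rich DNA, and marks many genes that a cell keeps silent. The alpha-1 receptors (Adra1a, Adra1b, Adra1d) act through Gq and phospholipase C, the alpha-2 receptors (Adra2a, Adra2b, Adra2c) through Gi and lower cyclic AMP, and the beta receptors (Adrb1, Adrb3) through Gs and higher cyclic AMP. In the hippocampus, noradrenaline reaches these receptors from axons of the locus coeruleus and modulates synaptic plasticity and memory.

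The widest peak of each receptor gene overlapped coding sequence, from 10.0% of the peak at Adra1a to 95.8% at Adrb1. The 300 bases with most CpG dinucleotides, clear of annotated UTRs, are shown for 4 peaks of at least 1 kb, namely those of Adra1d and Adra2a with higher KD means and, for contrast, those at the last coding exon of Adra1d and in Adra2c with lower KD means. These 4 stretches were picked among those that are coding sequence throughout, and come from GRCm38 (the assembly behind mm10), written 5′ to 3′ on the strand of the gene with each CpG in capitals.
Adra1d, peak over the gene start (chr2:131561869-131562168, minus strand): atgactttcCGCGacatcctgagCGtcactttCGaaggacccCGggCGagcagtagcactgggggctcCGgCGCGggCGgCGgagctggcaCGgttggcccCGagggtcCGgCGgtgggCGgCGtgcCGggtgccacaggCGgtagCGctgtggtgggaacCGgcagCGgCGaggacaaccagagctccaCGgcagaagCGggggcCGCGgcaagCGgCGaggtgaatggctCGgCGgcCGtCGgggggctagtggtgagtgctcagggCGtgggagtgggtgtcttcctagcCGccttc
Adra2a, single peak (chr19:54046907-54047206, plus strand): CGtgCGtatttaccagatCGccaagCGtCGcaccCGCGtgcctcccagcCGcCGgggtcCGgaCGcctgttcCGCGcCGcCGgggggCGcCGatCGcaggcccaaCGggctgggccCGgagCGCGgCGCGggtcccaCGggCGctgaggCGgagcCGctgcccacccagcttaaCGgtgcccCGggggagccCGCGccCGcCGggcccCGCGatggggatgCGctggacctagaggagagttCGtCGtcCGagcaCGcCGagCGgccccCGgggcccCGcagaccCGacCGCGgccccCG
Adra1d, peak over the last coding exon (chr2:131546158-131546457, minus strand): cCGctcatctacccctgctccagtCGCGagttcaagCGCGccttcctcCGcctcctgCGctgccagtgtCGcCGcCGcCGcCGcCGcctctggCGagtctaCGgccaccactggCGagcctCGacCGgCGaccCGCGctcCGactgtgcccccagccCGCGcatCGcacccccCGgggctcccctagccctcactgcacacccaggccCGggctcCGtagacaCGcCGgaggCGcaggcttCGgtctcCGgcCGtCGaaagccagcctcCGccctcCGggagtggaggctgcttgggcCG
Adra2c, peak over the coding exon (chr5:35280683-35280982, plus strand): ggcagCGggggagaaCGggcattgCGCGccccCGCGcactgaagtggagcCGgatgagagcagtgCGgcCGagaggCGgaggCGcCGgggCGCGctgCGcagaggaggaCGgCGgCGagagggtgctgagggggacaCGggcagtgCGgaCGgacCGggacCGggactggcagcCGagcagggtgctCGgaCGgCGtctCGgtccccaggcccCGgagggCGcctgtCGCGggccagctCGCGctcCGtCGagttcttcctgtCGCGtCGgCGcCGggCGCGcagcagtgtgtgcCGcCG
These stretches hold 35, 49, 38 and 45 CpG dinucleotides in the order shown. High and low KD means thus both occurred over CpG-dense receptor coding sequence.

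Peaks of at least 1 kb were examined first, because a difference of at least 1 on the log2 scale between the group means, or 2-fold, was found in 41.1% of all listed peaks but in 13.0% of the 2301 peaks of that width. The receptor genes held 10 such wide peaks, at least 1 at each gene. Each of the 10 overlapped a coding exon, as did 45.0% of all wide peaks. The 2 shares are not alike, since receptor peaks were taken only in or near protein-coding genes and all wide peaks include those between genes. The KD mean was higher in 3 of them (Adra1d at its start, Adra2a and Adrb1) and lower in 7. The difference reached 2-fold in 2 of the 10, both higher after KD, where 5.08% of all wide peaks were higher and 7.91% lower by that much.

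**Figure D1:**
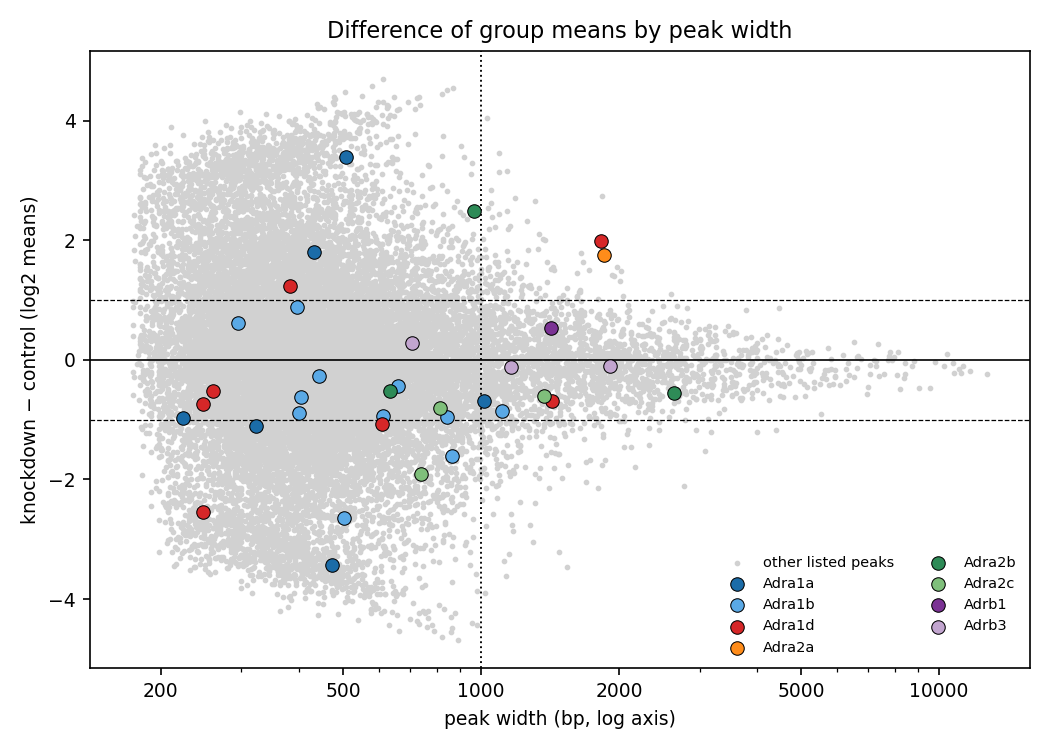
Difference of the authors' group means (knockdown minus control, log2 scale) against peak width (bp, log axis) for all peaks on chromosomes in grey and the 35 receptor peaks in colour, with dashed lines at a 2-fold difference and a dotted line at 1 kb. The wide peaks of Adra1d (1.99) and Adra2a (1.75) lie above the upper dashed line, while the 25 narrow receptor peaks lie on both sides of 0, with a median of -0.73 against -0.0049 for all narrow peaks.

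The start of Adra1d had the largest difference among the wide receptor peaks. Adra1d encodes the alpha-1D receptor and lies on chromosome 2 (131545850 to 131562283, minus strand). Its widest peak, of 1829 bp (131561117 to 131562945), reached from position -662 to position 1166 relative to the gene start, so that it covered the start and the first coding exon, with the start of the antisense RNA gene Gm14285. There the authors' log2 mean came to 4.33 for control and 6.32 for KD neurons, or 20.1 and 80.1 normalized reads per library. This is a difference of 1.99 on the log2 scale, a 3.98-fold higher KD mean. Of all wide peaks, 1.00% had a difference as high. Among the 827 peaks at least as broad, a limit set by this peak's own width, 2 did, this one included. Since the family was chosen for a high KD value here, these shares only describe the peak. Because the gene and Gm14285 share this DNA, the peak cannot be given to one of them.

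The rest of the Adra1d locus did not share that direction. A second wide peak of 1432 bp (131545953 to 131547384) covered the last coding exon, 14899 bp from the gene start, with log2 means of 5.08 in the control and 4.38 in the KD, a difference of -0.70. Inside the intron, a 608 bp peak 3565 bp from the start had means of 4.06 and 2.99, and a 247 bp peak 5514 bp from the start had 2.15 and 1.42. A 260 bp peak beyond the gene end had 2.90 in the control and 2.38 in the KD. Of the 6 Adra1d peaks other than that over the start, 5 had the lower mean in the KD, and their summed reads were 74.9 in the control and 49.0 in the KD.

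Upstream of Adra1d, neighbouring narrow peaks differed in opposite directions. The 382 bp peak 3722 bp before the start had log2 means of 2.23 in the control and 3.46 in the KD. Just farther out, the 247 bp peak 4535 bp before the start had 2.98 in the control and 0.44 in the KD. The start peak made up 21.2% of the reads over all Adra1d peaks in the control and 62.0% in the KD.

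Adra2a was the other receptor gene with a wide peak past 2-fold. It encodes the alpha-2A receptor, an inhibitory autoreceptor of noradrenergic neurons that is also found on their target cells, and has 1 coding exon (chromosome 19, gene from 54044151 to 54048982). Its only peak, of 1852 bp (54046043 to 54047894), covered all 1395 coding bases and began 1892 bp after the gene start, or 783 bp after the nearest annotated transcript start. The authors' log2 mean was 3.84 in the control and 5.60 in the KD, a difference of 1.75 and a 3.37-fold higher KD mean. Per kb of peak this was 7.75 normalized reads in the control, the lowest control level of the 10 wide receptor peaks, and 26.1 in the KD. Of all wide peaks, 1.30% had a difference as high. Among the 798 peaks at least this broad, a limit set by this peak's own width, 1 did, namely this peak. As the family was chosen by these group means, both shares only describe the peak.

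**Figure D2:**
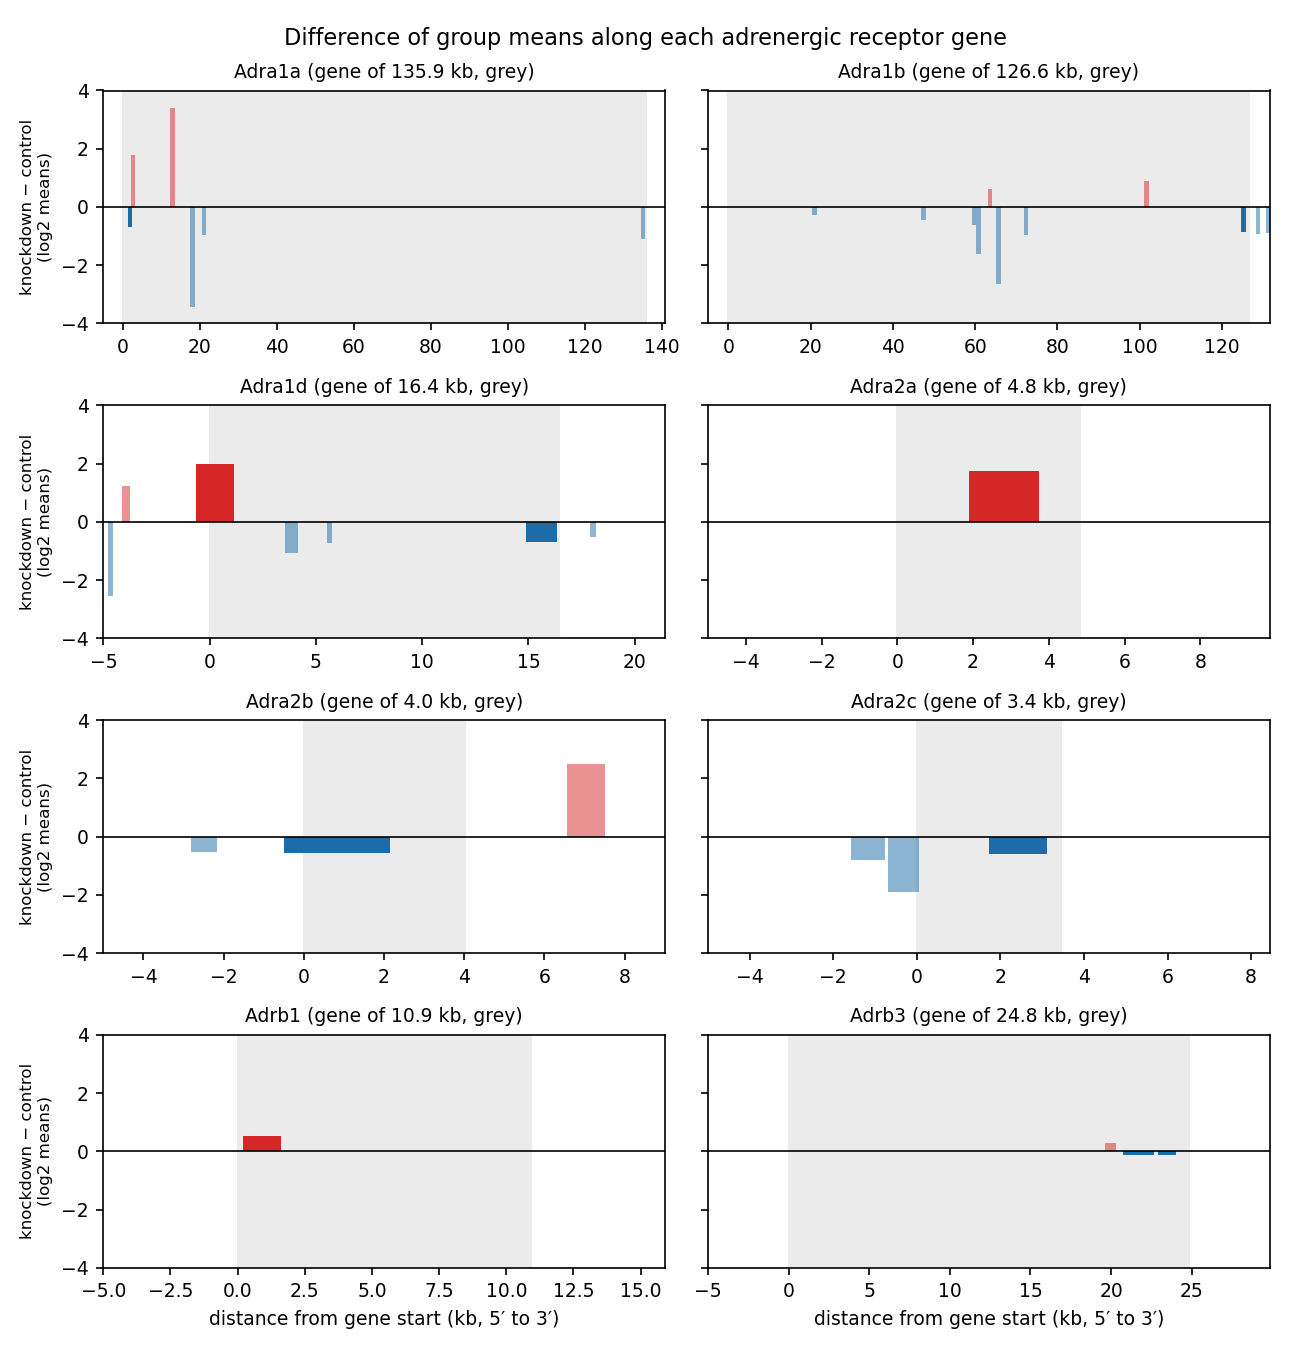
Difference of the authors' group means (log2 scale, bars above 0 for higher knockdown means) at each peak against the distance from the gene start in kb, with the gene body in grey, bars as wide as the peaks or the smallest visible width, and peaks under 1 kb in paler colour. Adra1d has a bar of 1.99 over its start and one of -0.70 at its far end, and the single bar of Adra2a reaches 1.75.

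The other alpha-1 genes are long genes with many peaks, most of them lower after KD. Adra1b (chromosome 11, 43774606 to 43901210, minus strand) encodes the alpha-1B receptor and had 11 peaks, of which 9 had the lower mean in the KD. The widest, 1113 bp over the last coding exon (43775431 to 43776543), had log2 means of 5.19 in the control and 4.33 in the KD. A 502 bp peak lying wholly in coding sequence (43835358 to 43835859), 473 bp from the nearest transcript start, had 3.59 and 0.95, a difference of -2.64. An 863 bp intron peak (43840009 to 43840871) had 4.26 and 2.66. The 2 Adra1b peaks with the higher KD mean were a 295 bp and a 396 bp intron peak, with differences of 0.62 and 0.88. The remaining intron peaks, of 444 bp, 659 bp, 405 bp and 842 bp, had differences of -0.27, -0.44, -0.62 and -0.96. Downstream of the gene, the 611 bp and 400 bp peaks had differences of -0.94 and -0.88.

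Adra1a, which encodes the alpha-1A receptor (chromosome 14, 66635251 to 66771168), had 6 peaks in its window with no shared direction. The widest, 1015 bp (66636665 to 66637679), overlapped coding sequence over 10.0% of its length and had log2 means of 4.25 in the control and 3.56 in the KD. The next peak, 431 bp wide (66637794 to 66638224), lay wholly in coding sequence and had 1.78 in the control and 3.58 in the KD, the opposite order to its neighbour. In the first part of the gene, a 507 bp intron peak (66647939 to 66648445) had 0.37 in the control and 3.75 in the KD. About 5 kb on, a 474 bp intron peak (66653230 to 66653703) had 3.43 in the control and was listed at 0 in the KD, the only receptor peak with a group at 0. The listed values do not go below 0, so such a mean stands for 1 normalized read or less. Intron peaks of 224 bp and 323 bp had differences of -0.97 and -1.11.

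Adra2b and Adra2c, whose widest peaks were lower after KD, contrasted with Adra2a. The alpha-2B gene Adra2b (chromosome 2, 127363208 to 127367221) carried the broadest receptor peak, 2637 bp (127362719 to 127365355), over the gene start and all 1359 coding bases. The control mean was 6.66 and the KD mean 6.11 on the log2 scale, a difference of -0.55. At 38.5 normalized reads per kb in the control and 26.2 in the KD, it had the highest control level per length of the wide receptor peaks. A 633 bp peak 2175 bp before the start had 3.78 and 3.26. In contrast, a 965 bp peak between genes (127369768 to 127370732), 6560 bp after the start, had 1.90 in the control and 4.40 in the KD, the largest difference toward the KD outside Adra1a, at 2.49.

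Adra2c encodes the alpha-2C receptor and has 1 coding exon (chromosome 5, 35278319 to 35281763). All 3 of its peaks had the lower mean in the KD. The coding exon peak of 1376 bp (35280056 to 35281431) had log2 means of 5.59 and 4.99. A 738 bp peak over the gene start (35277632 to 35278369) had 4.01 in the control and 2.10 in the KD, a difference of -1.91, and the 815 bp peak just upstream had 4.72 and 3.92. Differences of -0.60, -1.91 and -0.80 along 1 short gene thus had 1 sign but not 1 size.

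No peak of the beta receptor genes differed by 2-fold. Adrb1, the beta-1 receptor gene known for its role in the heart and also used by forebrain neurons (chromosome 19, 56722199 to 56733113), had a single peak of 1425 bp (56722405 to 56723829) over 97.6% of its coding bases. The authors' log2 mean was 4.79 in the control and 5.33 in the KD, a difference of 0.54, and 14.5% of all wide peaks had a difference as high. Adrb3, the beta-3 receptor gene of adipose tissue (chromosome 8, 27225776 to 27250616, minus strand), had a wide peak of 1917 bp with 5.60 and 5.49, a wide peak of 1164 bp with 4.84 and 4.71, and a 708 bp peak with 3.53 and 3.81. The largest of these 3 differences in size was 0.28, at the 708 bp peak. The 1917 bp and 708 bp peaks also overlapped the antisense RNA gene Gm45470.

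**Figure D3:**
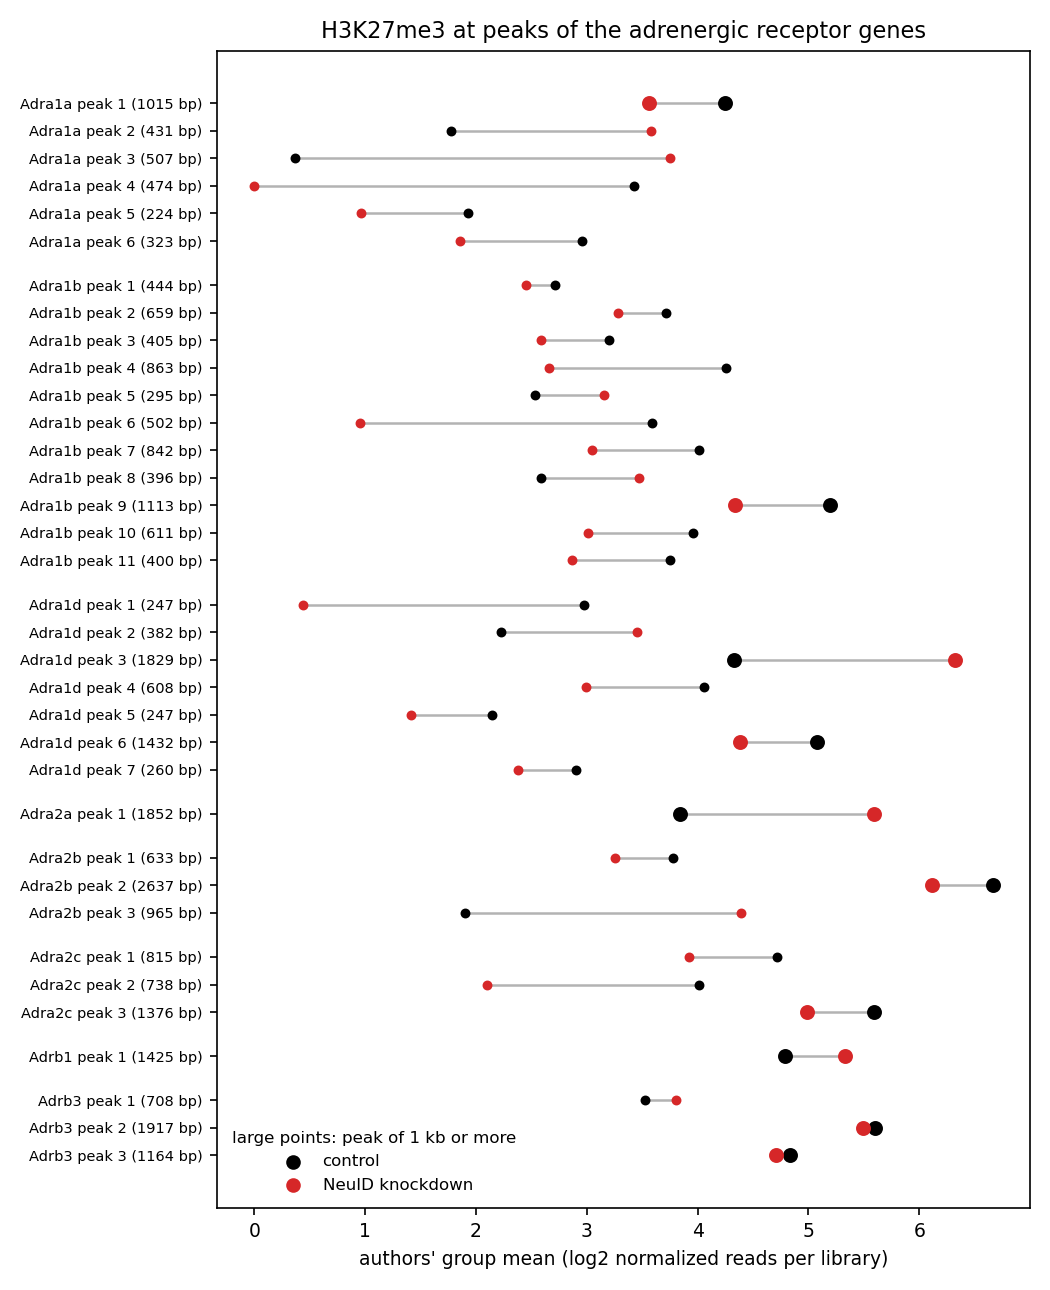
The authors' group means (log2 normalized reads per library) of the control (black) and the NeuID knockdown (red) at each of the 35 peaks, in 5′ to 3′ order within each gene, with large points for peaks of at least 1 kb. The red point lies to the right at 10 peaks and to the left at 25, and the Adra1d peak of 1829 bp has points at 4.33 and 6.32.

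Over all 35 receptor peaks, 10 had the higher and 25 the lower mean in the KD, so that 71.4% were lower, against 50.8% of all listed peaks. The median difference was -0.60 (quartiles -0.95 and 0.41), against -0.02 (quartiles -0.80 and 0.77) for all listed peaks. A 2-fold difference was found toward the KD in 6 receptor peaks, or 17.1%, where 20.4% of all listed peaks had one. Toward the control it was found in 7, against 20.6% of all. The lower median went with many moderate differences and no excess of 2-fold ones. Leaving out peaks with a group at 0 left 6 receptor peaks past 2-fold in each direction, where 36.9% of all such peaks were past it, 18.4% higher and 18.5% lower. With an overall log2 mean of at least 4, 2 receptor peaks were higher and 0 lower, where 5.02% of all such peaks were higher and 9.12% lower, 14.1% together. Of the 13 receptor peaks past 2-fold, 11 were under 1 kb, a width at which 44.1% of all peaks were past 2-fold, 22.1% higher and 22.0% lower. Peaks of 1 gene share their libraries and are not replicates, and Adra1b alone contributed 9 of the 25 lower peaks.

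To compare whole genes, the normalized reads of all peaks in each window were summed. Adra2a had the highest ratio, with 14.4 reads per library in the control and 48.4 in the KD, a log2 ratio of 1.75. Adrb1 followed with 27.7 and 40.2 (0.54) and Adra1d with 95.0 and 129.1 (0.44). Adrb3 had 88.5 and 85.1 (-0.06), Adra1a 46.1 and 43.8 (-0.07) and Adra2b 118.9 and 99.8 (-0.25). Adra1b had 153.6 and 93.3 (-0.72), and Adra2c was lowest with 90.6 and 51.2 (-0.82). How many of the neighbours in this order lie within the spread between libraries could not be judged.

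The higher value over Adra1d lay in its start peak and the 382 bp peak upstream, and its other 5 peaks were lower. As a whole gene, 32.0% of the 6154 protein-coding genes with a peak in the same window had a log2 ratio as high as that of Adra1d. For Adra2a this share was 8.90%, and for Adra2c 16.3% had a ratio as low. Only Adra2a passed a 2-fold ratio among the 8 genes, where 31.4% of the 6154 genes did so, 17.6% toward the KD and 13.8% toward the control. Summed over the family, reads came to 634.9 per library in the control and 590.7 in the KD, or 93.0% of the control, against 97.1% over all listed peaks. Without Adra1d the remaining 7 genes came to 85.5%, and without Adra1d and Adra2a the remaining 6 to 78.6%. Both genes left out had higher KD sums, so these shares had to fall. They are not comparable to the share over all listed peaks, from which no peaks were removed. By class, the alpha-1 genes came to 90.3%, the alpha-2 genes to 89.0% and the beta genes to 108%, and each class held at least 1 gene with a higher and 1 with a lower sum.

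The wide receptor peaks ranged from 2.87 CpG dinucleotides per 100 bases at the 1917 bp peak of Adrb3, and 3.25 at Adra1a, to 11.2 at Adrb1, a feature that the choice of peaks had not used. Their median CpG content was 5.97 dinucleotides per 100 bases, against 3.48 in all wide peaks, and their median GC content was 60.8% against 54.3%. Of the 10, 7 had a GC content of at least 50% and an observed-to-expected CpG ratio of at least 0.6, as in CpG islands, against 27.7% of all wide peaks. The 25 narrow receptor peaks had a median of 0.893 CpG per 100 bases, against 1.14 in all narrow peaks, and none met both limits. The coding peak of Adrb1 was the richest, at 11.2 CpG per 100 bases, followed by Adra2a at 8.96, the start of Adra1d at 8.58 and Adra2c at 8.58. Of these 4, Adra2c alone had the lower KD mean. These are features of coding exons as well as of Polycomb targets, and peaks of 8 related genes are no random sample of sequences.

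**Figure D4:**
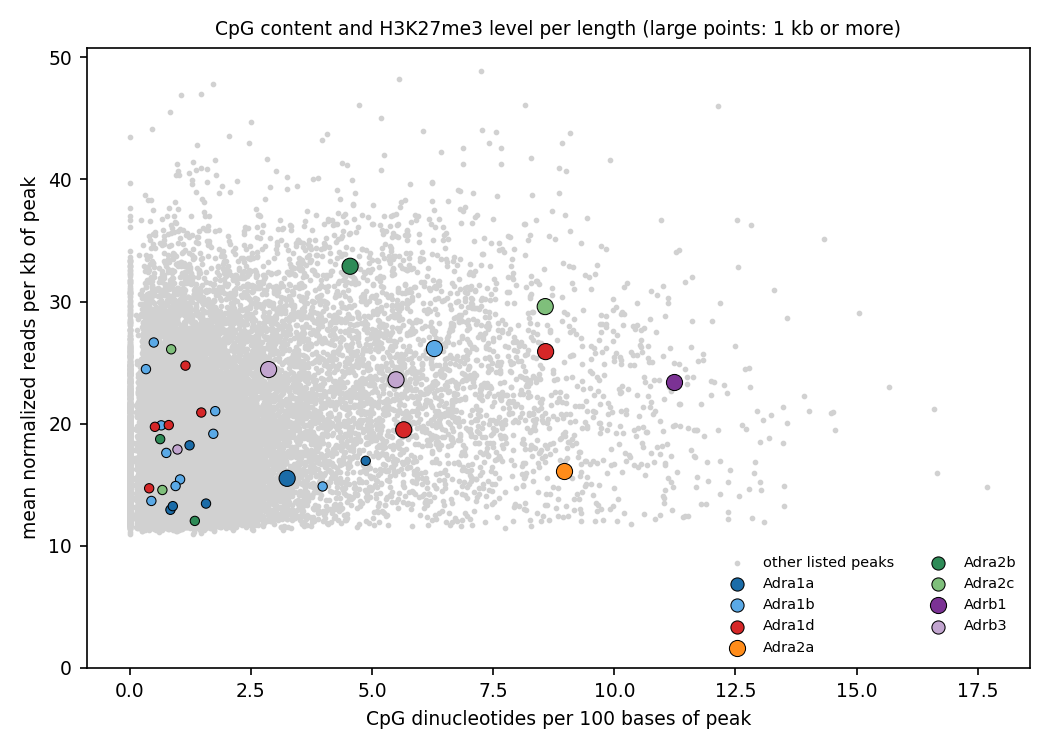
Mean normalized reads per kb of peak over all libraries against CpG dinucleotides per 100 bases, for all peaks on chromosomes in grey and the receptor peaks in colour, with large points for peaks of at least 1 kb. The wide receptor peaks lie to the right of nearly all narrow receptor peaks, with Adrb1 farthest at 11.2 and Adra2b highest at 32.9 reads per kb.

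Coverage of the receptors' coding sequence was high apart from Adra1a. Peaks covered 100% of the coding bases of Adra2a and Adra2b, 97.3% in Adra1d, 97.6% in Adrb1, 87.6% in Adra2c, 82.1% in Adrb3, 71.1% in Adra1b and 37.7% in Adra1a. The coding sequence is a single segment in Adra2a, Adra2b, Adra2c and Adrb1, and is split over 2 segments in Adra1b and Adra1d. An annotated gene start was covered in 3 genes, Adra1d, Adra2b and Adra2c, with differences of 1.99, -0.55 and -1.91 at those peaks. In Adrb3, transcript starts inside the annotated gene were covered by the 1917 bp and 708 bp peaks. Start coverage and direction did not go together in these genes.

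Genes that make, move and break down noradrenaline were set beside the receptors. Of 11 such genes, 8 had a peak, with 20 peaks in all, of which 3 were higher and 2 lower by 2-fold after KD, and a median difference of -0.08. Over all listed peaks, 20.4% were higher and 20.6% lower by 2-fold, so these counts do not exceed the background. Pnmt, which converts noradrenaline to adrenaline, had a 1043 bp promoter peak, meaning within 1 kb of an annotated gene start, with log2 means of 4.64 in the control and 3.16 in the KD. Th, the rate-limiting enzyme of catecholamine synthesis, had narrow peaks with differences of -1.27 over a coding exon and 1.96 in an intron. Slc6a2, the noradrenaline transporter gene, had a 438 bp intergenic peak with a difference of 1.10. The third higher peak lay over a coding exon of Ddc and was listed at 0 in the control. No peak was listed in the window of Dbh, Gch1 or Maoa.

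Among 16 signalling partners of the receptors, 3 had a peak (Gnas, Plcb1 and Plcb4), where 28.1% of all protein-coding genes had one. Of their 12 peaks, 4 were higher by 2-fold after KD, all narrow intron peaks of the phospholipase C genes Plcb1 (1.94) and Plcb4 (1.96, 1.68 and 2.52). None was lower by that much. Of all peaks under 1 kb, 22.1% were higher and 22.0% lower by 2-fold. All 6 genes of a list of noradrenergic neuron transcription factors had peaks, 56 in all, with a median difference of -0.24. Of these peaks, 6 were lower and 1 higher by 2-fold, both below the 20.6% and 20.4% of all listed peaks. The lower ones lay at Tfap2b (-1.17 and -1.05), Gata3 (-1.28 and -1.25), Insm1 (-1.36) and Hand2 (-1.83), and the higher one at Gata2 (1.32). However, 26 of the 56 were at least 1 kb wide, a width at which 7.91% of all peaks were lower and 5.08% higher by 2-fold. The shares of all listed peaks are thus not a background of like width.

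Other amine receptor genes gave the closest comparison for the family. Of 5 dopamine receptor genes 4 had a peak, as did 9 of 13 serotonin, 3 of 5 muscarinic acetylcholine and 4 of 4 histamine receptor genes, against 8 of 8 for the adrenergic genes. The wide peaks numbered 2, 3, 0 and 2 in these families, against 10. Median differences were -0.09 over 13 dopamine, 0.02 over 17 serotonin, -0.30 over 6 muscarinic and 0.01 over 8 histamine receptor peaks. The adrenergic median of -0.60 was the lowest of the 5 families, without a test of the difference. As the adrenergic family was chosen by its group means, this order is only a description. With peaks of at least 1 kb alone, the adrenergic median was -0.34, against -0.09 for all peaks of that width. Medians of such peaks were not computed for the other 4 families.

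Single peaks past 2-fold occurred in both directions in each of these 4 families, the higher muscarinic one having a control mean listed at 0. Of all listed peaks, 41.1% were past 2-fold in either direction. Drd2, the inhibitory dopamine receptor gene, had a pair of narrow promoter peaks with differences of 1.06 and 3.16 and an intron peak with -2.82. Drd1 had a 781 bp promoter peak with 2.52 in the control and 4.82 in the KD. Among the serotonin genes the differences were -1.95 at Htr3b, -1.40 at Htr1b, -1.58 and -1.71 at Htr2c, and 2.19 and -1.03 at Htr7. Chrm2 (-1.003) and Chrm3 (-1.63) had lower peaks. Hrh1 had a pair of promoter peaks with -1.38 and -1.48, Hrh2 an intron peak with 1.59, Hrh4 an intergenic peak with 1.06, and Hrh3 a 1021 bp promoter peak with 1.36, the only wide one among these.

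**Figure D5:**
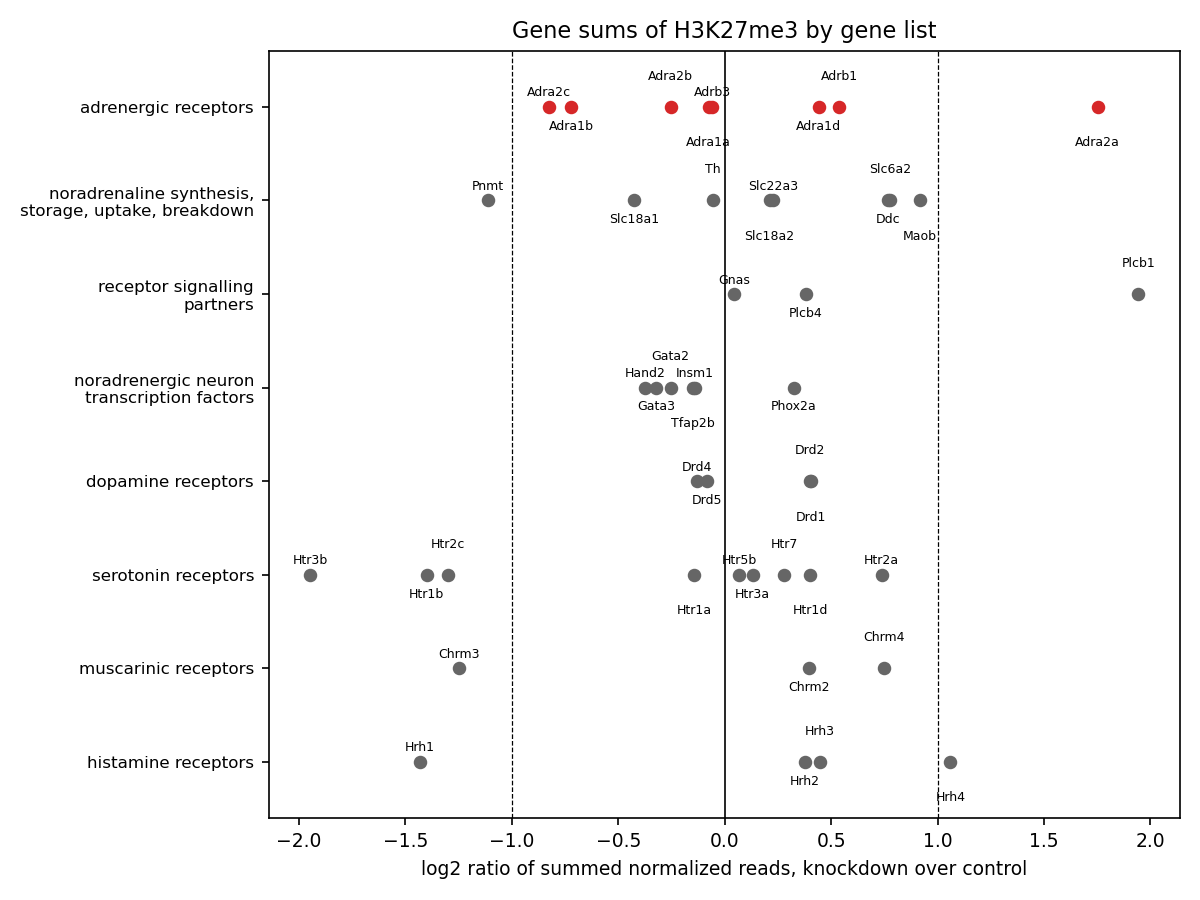
Log2 ratio of summed normalized reads, knockdown over control, for each gene with a peak in the adrenergic receptor family (red) and in 7 other gene lists (grey), with dashed lines at a 2-fold ratio. Adra2a at 1.75 lies beyond the upper line, Adra1d at 0.44 within both, and Adra2c at -0.82 is the lowest adrenergic receptor gene.

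To find genes with a pattern like the start of Adra1d, the 1533 other wide peaks over protein-coding genes were ordered by the distance of their pair of log2 group means from those of Adra1d. The nearest, over 2 group means each, were peaks in Abca7 (4.61 in the control and 6.16 in the KD, distance 0.32), Sgpp2 (4.43 and 5.93, distance 0.40), Runx1 (4.43 and 5.92, distance 0.42), Prdm6 (4.99 and 6.32, distance 0.66) and Esrrb (4.86 and 5.85, distance 0.71). None of these 5 had a difference as large as the 1.99 of Adra1d, the largest being 1.56 at Abca7. They were picked by both means together and not by the difference. Of all 2301 wide peaks, 23 had a difference as high, that of Adra1d included.

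The histone mark does not measure expression, so the identity of the cultures was looked at only through peaks near cell type marker genes. Of 11 neuronal markers 8 had a peak, with wide ones at Gad1, Gad2, Rbfox3 and Slc17a7. A peak was also listed at 1 of 4 astrocyte, 1 of 3 oligodendrocyte, 1 of 3 microglial and 3 of 3 endothelial markers. Among all protein-coding genes, 28.1% had a peak in the same window. These counts do not show which cells the cultures held. Knockdown of *NeuID* RNA was likewise not measured in these libraries.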

How the data were processed

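H3K27me3 ChIP-seq was made from mouse primary hippocampal neurons treated with a control or a *NeuID* gapmer, and each library's title gave its group. As the paper's methods state, single-end reads were aligned to mm10 by bowtie2, MACS2 was run for broad peaks and DiffBind set the groups against each other. The authors deposited, for each peak, log2 means of normalized reads per library, overall and by group. How reads were normalized, peaks merged and inputs used is not given in the sources used here. The table also holds the authors' own fold change, p-value and FDR for each peak, 3 columns that were not used. There were 0 other per-sample columns left out.

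From these means the difference (KD minus control), reads per kb of peak and sums per gene were computed. A mean listed at 0 was taken as 1 read in sums. No test was made, since group means carry no replicate error. Genes were those of GENCODE M21 and sequences those of GRCm38, and 23642 peaks lay inside its 20 chromosomes that hold peaks. A peak was called a promoter peak within 1 kb of a gene start. Receptor genes, gene lists, limits and comparisons were chosen with earlier results of these data known. All 8 genes and all their peaks were named, and of the lists of pathway and other receptor genes each peak past 2-fold with both means above 0, while cell type markers were given by counts. Like genes were the 5 nearest wide peaks. A few genes of the lists are not reported here. Alternatives were other windows, limits, filters, centring and ways to sum. Scripts were tested on simulated data and used Python 3.11.15, pandas 2.3.3, numpy 2.4.6 and pysam 0.24.0.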

Additional observations from a re-analysis of the deposited data

How the results depend on the processing

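No paired analysis was possible because only group means, and no library values, entered the comparisons, and fits that leave out a library, use a replicate block or normalize anew could not be run for the same reason. With no replicate spread, a log2 value was taken as moved when an alternative shifted it by 0.1 or more, and a count when it shifted by over 1.5 times. The windows other than 5 kb for the 2-fold counts, and for gene sums the nearest-start rule and the width limit, were chosen after seeing the data.

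Taking only peaks whose nearest gene start is that of the receptor left 23 of the 35 peaks, because the other 12 lie nearer to the start of Ttc1, Gm14285, Gm45470 or Gm10032, and left Adrb3 with none. The 2-fold counts became 2 higher and 0 lower both for peaks of at least 1 kb and for an overall log2 mean of at least 4, and 21 were lower at a limit of 0.5. Both filters moved the median difference to -0.34. The Adra1d gene ratio moved to 0.57 over the gene body alone, 1.501 with the nearest-start rule, 0.91 with peaks of at least 1 kb, 0.31 with log2 differences weighted by width and 1.99 for the widest peak alone, and stayed above 0 in all 9 alternatives. Adra1a, near 0, turned to 0.068 with the nearest-start rule and 0.28 with both means above 0, and went the other way, to -0.69, when narrow peaks were dropped or the widest alone was kept. Adra2b moved to -0.55 in 4 alternatives and turned to 0.15 with weighting by width, and Adrb3 to 0.022 with a 10 kb flank. The ratios of Adra2a (1.75 to 1.77), Adrb1 (0.54 to 0.56), Adra1b (-0.86 to -0.68) and Adra2c (-0.99 to -0.60) kept their signs in all 9 alternatives. Beyond the construction of each alternative, causes were not tested. The median receptor peak held 11.6 normalized reads per library, which limits the precision of its means.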

Other observations

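At Adra1a and Adra1d, 3 pairs of neighbouring peaks, noticed after their values were seen, lay less than 5 kb apart and had 2-fold differences of opposite sign. These were the intron peaks of Adra1a (3.38 and -3.43), the upstream peaks of Adra1d (1.23 and -2.54), and the start peak of Adra1d beside its first intron peak (1.99 and -1.07). Which libraries carried these means was not analysed here. The -3.43 at Adra1a rests on a KD mean at the lowest value listed. Except for the start peak of Adra1d, the peaks of these pairs were under 1 kb. At that width 22.1% of all peaks were higher and 22.0% lower by 2-fold. Neighbours of opposite sign were not counted over all listed peaks, so the 3 pairs are only a description.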
